A study of Mus musculus with 4 samples.

Results

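ABC transporter genes encode proteins that bind and hydrolyse ATP through a conserved ATP-binding cassette. Those mouse protein-coding genes whose symbol reads Abc, a letter from a to g and a digit were taken as members, which gave 50 of the 21900 protein-coding genes of the RefSeq annotation of GRCm38.p6, the assembly of mm10. They were described in H3K27me3 chromatin immunoprecipitation and sequencing (ChIP-seq) of GL261, an established mouse glioblastoma cell line. The groups were irradiated GL261 cells (labelled IR, read as irradiated from the series title) and control GL261 cells (labelled Con), with 1 H3K27me3 library and 1 input library each. The sources used here give neither a radiation dose nor a time of harvest. Each H3K27me3 library had its own deposited list of enriched regions (peaks), with 16091 peaks for irradiated and 9866 peaks for control cells, and the input libraries were not used here on their own. A gene is called marked when a listed peak lay in it or within 2 kb of it. Members were chosen by symbol, but the family itself was selected on its listed peaks in these libraries, so its counts are given as a description with no test. With 1 library per group there was no replicate error to set a difference against, and every interval below is an exact 95% interval that covers counting error only.

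H3K27me3, trimethylated lysine 27 of histone H3, is deposited by Polycomb repressive complex 2 and is a mark of silent genes, where it often lies over promoters rich in CpG dinucleotides. Most ABC proteins are membrane pumps. Abca proteins mainly move lipids, Abcb proteins include the P-glycoproteins and the bile salt pump, and Abcc proteins include the multidrug resistance-associated proteins and the sulphonylurea receptors. Abcd proteins serve peroxisomes and lysosomes, and Abcg proteins move sterols, urate and drugs. Abce and Abcf proteins have no membrane domain and act on ribosomes and translation. In brain and glioma, Abcb and Abcg pumps are known for drug efflux at the blood-brain barrier.

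ABC genes were marked in 14 of 50 cases in irradiated cells (28%, 16.2 to 42.5) and in 11 of 50 in control cells (22%, 11.5 to 36.0). Of all protein-coding genes, 8.19% were marked in irradiated and 6.05% in control cells. Among ABC genes, 7 were marked in both lists (3.67% of all genes), 7 in the irradiated list without a control peak (4.53%) and 4 in the control list without an irradiated peak (2.38%). The other 32 had no listed peak. ABC genes were long, with a median of 64.8 kb against 17.1 kb for all protein-coding genes, and a long gene has more room for a peak. The part of length in these shares was not tested. Marked members had a median length of 83.5 kb (49.7 to 493) and unmarked ones 40.1 kb (8.75 to 225). Of the 31 members of at least 50 kb, 13 were marked in irradiated cells (41.9%, 24.5 to 60.9) and 11 in control cells (35.5%, 19.2 to 54.6), against 17.9% and 16.3% of all protein-coding genes of that length. Of the 19 members under 50 kb, only Abcc3 was marked, in irradiated cells, and none was marked in control cells, against 5.36% and 3.07% of all protein-coding genes of that length.

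The members held 49 peaks in the irradiated list and 32 in the control list, a ratio of 1.53 (0.961 to 2.47). At all protein-coding genes the ratio was 1.95 (1.87 to 2.03), with 6126 irradiated and 3145 control peaks. Per Mb of gene and flank, ABC genes held 11.9 irradiated and 7.77 control peaks, while all protein-coding genes held 5.38 and 2.76. The order of the lists changed when they were cut to equal length. With the 9866 peaks of lowest p from each list, 10 members were marked in irradiated and 11 in control cells, by 24 and 32 peaks. This shortened the irradiated list alone, so the lists then had unlike p limits. The same counts over all protein-coding genes were not set beside these. Abcc2, Abcc3 and Abcc9, chosen after their values were seen, held 26 of the 49 irradiated peaks (53.1%) and 11 of the 32 control peaks (34.4%). Without them, 23 irradiated and 21 control peaks were left.

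**Figure D1:**
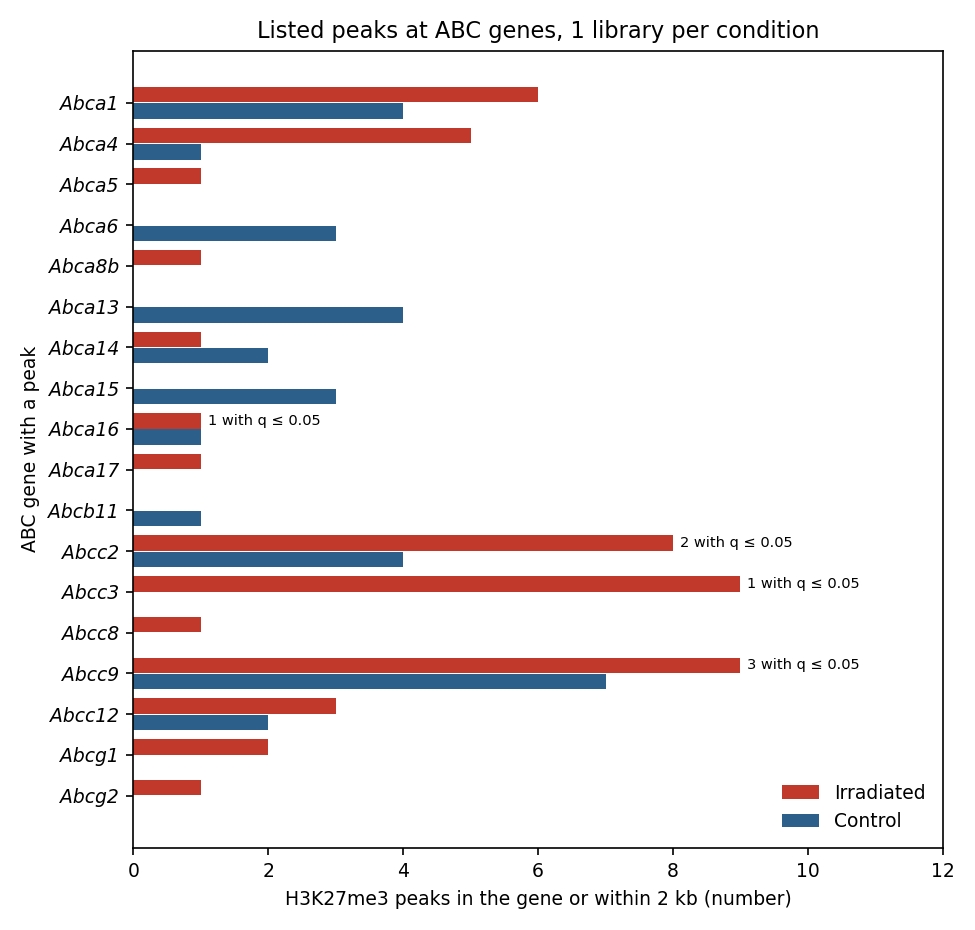
Bars give the number of H3K27me3 peaks in each of the 18 ABC genes with a peak, or within 2 kb of it, irradiated above control, with 1 library each. Abcc3 and Abcc9 held 9 irradiated peaks each, against 0 and 7 control peaks, and all 7 peaks that reached a q of 0.05 were irradiated ones. At all protein-coding genes, 13.6% of irradiated and 5.15% of control peaks reached it.

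The marked genes fell mainly into the subfamilies Abca and Abcc, which hold 26 of the 50 members. In Abca, 7 of 16 genes were marked in irradiated and 7 of 16 in control cells (43.8% each, 19.8 to 70.1), with 4 in both. In Abcc, 5 of 10 were marked in irradiated cells (50%, 18.7 to 81.3) and 3 of 10 in control cells (30.0%, 6.67 to 65.2), with 3 in both. With lists of equal length, 3 Abcc genes were marked in irradiated and 3 in control cells, and 5 and 7 Abca genes. Outside these subfamilies, 2 of 24 genes were marked in irradiated cells (8.33%, 1.03 to 27) and 1 of 24 in control cells (4.17%, 0.105 to 21.1), near the 8.19% and 6.05% of all protein-coding genes. Among genes of at least 50 kb outside them, 2 of 9 were marked in irradiated (22.2%) and 1 of 9 in control cells (11.1%), beside 17.9% and 16.3% of all genes of that length. Abca held 16 irradiated and 18 control peaks, a ratio of 0.889 (0.424 to 1.85), and Abcc 30 irradiated and 13 control peaks, a ratio of 2.31 (1.17 to 4.82), where the whole lists stood at 1.63 (1.59 to 1.67). Peaks of 1 gene share a locus, so these intervals are too narrow, and the difference between the subfamilies was not tested. Without Abcc2, Abcc3 and Abcc9, Abcc held 4 irradiated and 2 control peaks.

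**Figure D2:**
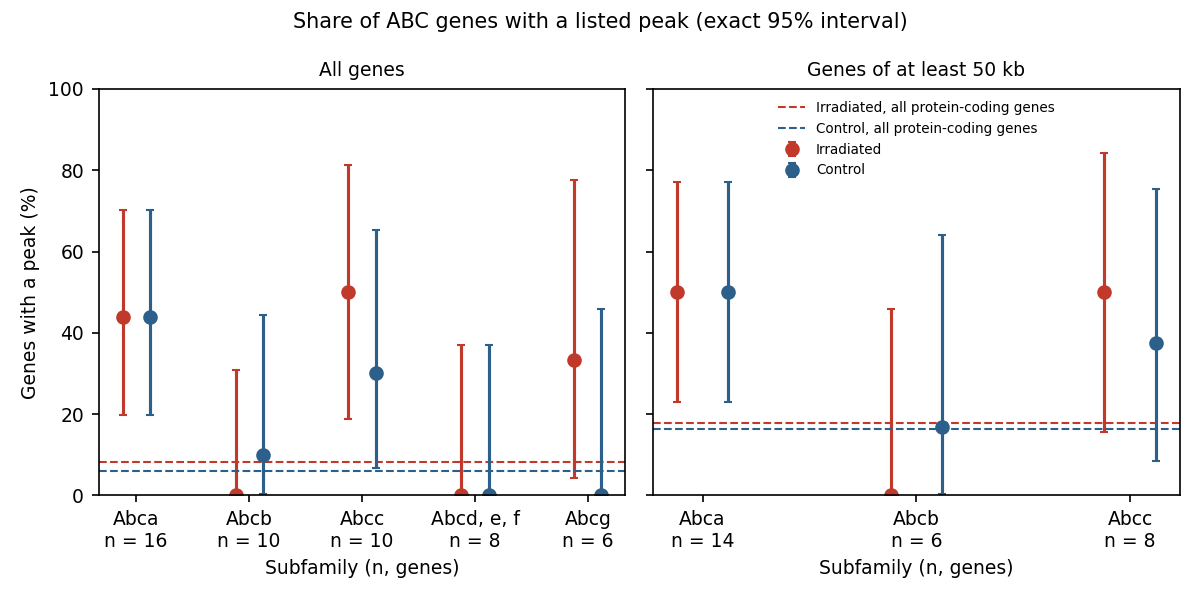
Points give the percentage of genes with a peak in each ABC subfamily, irradiated left of control, and bars the exact 95% interval; dashed lines give all protein-coding genes, for every length (left) and for genes of at least 50 kb (right). Abca and Abcc lay above both lines, at 43.8% to 50% in irradiated cells, and Abcb at 0% in irradiated and 10.0% in control cells.

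The peaks were weak, as in the whole lists. The fold enrichment that the authors give for a summit was 3.46 in the median (2.37 to 5.79) over the 49 irradiated peaks and 3.32 (2.61 to 4.22) over the 32 control peaks, against 3.55 and 3.43 at all protein-coding genes. Numbers of ChIP reads at a summit, recovered from fold and p, had a median of 12 (8 to 17) in irradiated and 9 (7 to 15) in control cells. The background at a peak is given in scaled reads, of which 1 ChIP read makes 0.554 in the irradiated and 0.620 in the control list. A q (the p adjusted over the genome by the authors' caller) of 0.05 or less was reached by 7 irradiated peaks (14.3%, 5.94 to 27.2), against 13.6% at all protein-coding genes. Of the control peaks 0 of 32 did (0%, 0 to 10.9), against 5.15% at all protein-coding genes. This q was an unlike cut in the lists: the lowest −log10 p that reached it was 5.08 in the irradiated and 5.53 in the control list. Genes with such a peak numbered 4 of 50 in irradiated cells (Abcc2, Abcc3, Abcc9 and Abca16; 2.08% of all genes) and 0 of 50 in control cells (0.516%). A fold of at least 3.19 was needed at the lowest background of the irradiated list and of at least 2.78 at that of the control list, so folds were not compared as levels between the lists.

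**Figure D3:**
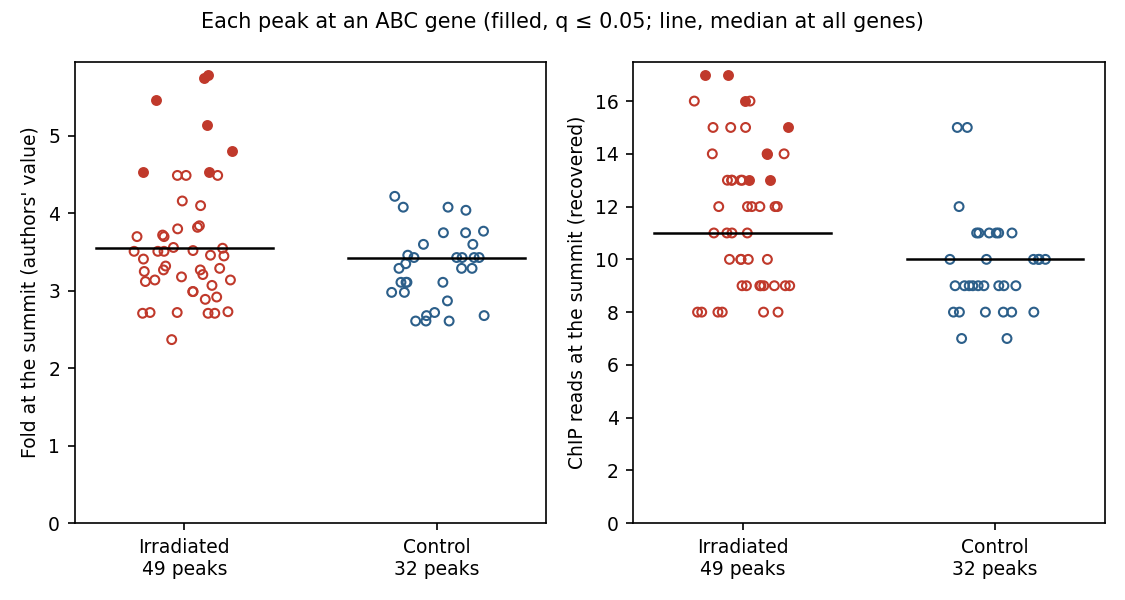
Each point is a peak at an ABC gene, irradiated left of control, with the authors' fold at the summit (left) and the recovered number of ChIP reads (right); filled points have a q of at most 0.05 and lines mark the median at all protein-coding genes. The irradiated peaks reached a fold of 5.79 and 17 reads, the control peaks 4.22 and 15.

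Peaks at ABC genes lay mainly inside the genes, and away from the listed start in the members that had one. Of the 49 irradiated peaks 48 touched the gene itself and 1 lay in a flank, and all 32 control peaks touched the gene. None of the 81 lay within 2 kb of another protein-coding gene. Starts were known for 38 members from the RefSeq promoter table. Within 5 kb of these starts lay 0 of 37 irradiated peaks (0%, 0 to 9.49) and 0 of 29 control peaks (0%, 0 to 11.9). At all protein-coding genes 15.2% (14.2 to 16.3) of irradiated and 14.1% (12.7 to 15.6) of control peaks lay that near, and such stretches made up 9.32% of the windows of the ABC genes, which lies inside both intervals, and 15.3% of those of all genes. Abcc3, which holds 9 of the 12 irradiated peaks without a known start, had its strongest peak and its flanking peak at the high-coordinate end of the gene, and whether that end is its start was not resolved. The nearest irradiated peak was 10466 bp upstream of a start, in Abcc12, and the nearest control peak 16111 bp from a start, in Abcc9. The Abcc12 start used, 86566590 on the minus strand, lies inside the gene span, which ends at 86580688. The summit of that peak, at 86577056, lies between these positions and closer to the end of the span. The count of 0 within 5 kb thus holds for the starts used only. At the 2 kb limit, the outermost peak counted was an irradiated one 984 bp from Abcc3 (fold 4.10, q 0.0536). The first ones left out were an irradiated peak 2308 bp from Abcc3 (fold 4.50, q 0.0421) and a control peak 2504 bp from Abca6 (fold 3.11, q 1.00).

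Promoters of ABC genes ranged from CpG-poor to CpG-rich, and marked genes were found at both. CpG dinucleotides (the letters CG, which read the same on both strands) were counted in the 250 bases before the start in RefSeq's sequence of GRCm38.p6. The count had a median of 9 (1 to 25) in 14 marked and of 13 (0 to 35) in 24 unmarked members. Over all genes the medians were 5.00 in 1744 marked and 10.0 in 15742 unmarked genes. An observed-to-expected CpG ratio of at least 0.6 was found in 42.9% of the marked and 54.2% of the unmarked members. Over all protein-coding genes it was found in 28.6% of the marked and 47.0% of the unmarked ones, and in 45.2% of both together. The sequences below show this range, first for the 3 genes with a known start and a peak of a q of at most 0.05, then for Abca5, the marked member with the most CpG, and then for unmarked members near both ends. They are printed from 5′ to 3′ along the gene with each CG in capitals. Abcc2 had 1 CG, Abca16 had 6, Abcc9 had 12 and Abca5 had 25, while the unmarked Abcb1a had 0 and Abcd3 had 34.
Abcc2 (chr19:43782058-43782307, plus strand): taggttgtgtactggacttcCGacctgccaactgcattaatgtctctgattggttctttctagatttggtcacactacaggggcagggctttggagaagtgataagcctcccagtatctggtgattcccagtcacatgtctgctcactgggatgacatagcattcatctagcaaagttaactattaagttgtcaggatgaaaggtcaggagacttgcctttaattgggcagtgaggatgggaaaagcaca
Abca16 (chr7:120409397-120409646, plus strand): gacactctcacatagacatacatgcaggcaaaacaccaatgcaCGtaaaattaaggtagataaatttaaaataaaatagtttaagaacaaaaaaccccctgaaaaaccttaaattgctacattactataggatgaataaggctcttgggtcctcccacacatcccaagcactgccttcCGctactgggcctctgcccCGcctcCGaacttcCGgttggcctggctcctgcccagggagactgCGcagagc
Abcc9 (chr6:142702275-142702524, minus strand): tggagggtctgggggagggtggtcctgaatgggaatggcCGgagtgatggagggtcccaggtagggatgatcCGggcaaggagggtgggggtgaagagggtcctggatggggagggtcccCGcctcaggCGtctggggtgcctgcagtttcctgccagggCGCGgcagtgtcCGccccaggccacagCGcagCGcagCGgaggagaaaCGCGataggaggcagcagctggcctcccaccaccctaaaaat
Abca5 (chr11:110337717-110337966, minus strand): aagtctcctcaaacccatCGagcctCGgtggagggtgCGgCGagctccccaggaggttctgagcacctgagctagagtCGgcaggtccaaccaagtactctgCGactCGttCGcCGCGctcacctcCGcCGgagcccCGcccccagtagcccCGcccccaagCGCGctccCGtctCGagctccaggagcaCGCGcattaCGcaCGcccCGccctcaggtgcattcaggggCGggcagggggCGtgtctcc
Abcb1a (chr5:8566841-8567090, plus strand): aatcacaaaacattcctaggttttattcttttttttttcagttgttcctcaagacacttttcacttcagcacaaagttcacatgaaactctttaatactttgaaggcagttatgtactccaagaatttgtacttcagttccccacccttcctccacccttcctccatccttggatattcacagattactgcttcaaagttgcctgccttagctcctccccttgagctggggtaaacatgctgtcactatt
Abcd3 (chr3:121815303-121815552, minus strand): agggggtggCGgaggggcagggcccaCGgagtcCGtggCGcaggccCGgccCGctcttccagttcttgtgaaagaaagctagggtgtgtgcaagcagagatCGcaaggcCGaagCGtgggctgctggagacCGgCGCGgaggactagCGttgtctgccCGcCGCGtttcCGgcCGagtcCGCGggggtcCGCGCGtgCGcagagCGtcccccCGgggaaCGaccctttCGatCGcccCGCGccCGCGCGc
No listed peak lay on these windows, so they describe the genes and not the place of the mark.

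**Figure D4:**
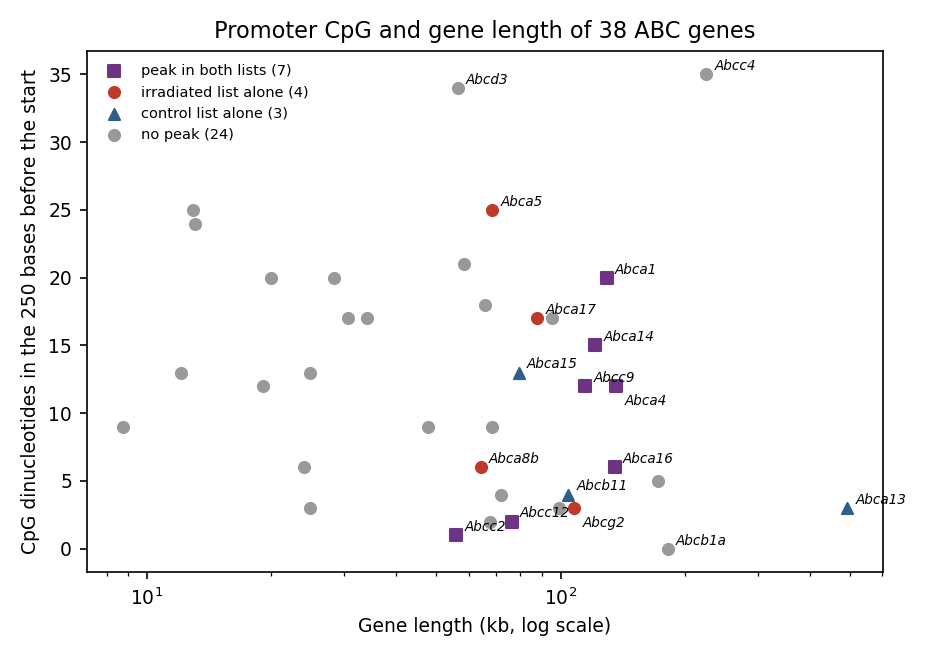
Each point is 1 of 38 ABC genes with a known start, by gene length (log scale) and the number of CpG dinucleotides in the 250 bases before the start, coloured by the lists with a peak. Marked genes have between 1 and 25 CpG and, Abcc2 excepted with 56.0 kb, lie above 60 kb.

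Abcc2 encodes a pump that exports bilirubin glucuronide and drug conjugates across the apical membrane of hepatocytes. The gene (ID 12780, chromosome 19, 43782308 to 43838332) held 8 irradiated and 4 control peaks. Its strongest irradiated peak, at 43807806 to 43808657, had 17 reads, 5.75-fold enrichment and q = 5.05e-04. A second one, at 43813941 to 43814273, had 13 reads, 4.81-fold enrichment and q = 0.0119, and the other 6 had folds of 3.27 to 3.84. The strongest control peak, at 43808261 to 43808602, overlapped the strongest irradiated one and had 15 reads, 3.77-fold enrichment and q = 0.140. The irradiated peaks stood over a background of 0.704 to 1.97 scaled reads, against a lowest value of 0.704 in that list, and the control peaks all over a raised one, of 1.51 to 2.84 against a lowest value of 0.918. The part of the background in the difference between the lists was not tested. The peaks of both lists were concentrated in the body of the gene, from 19.1 to 52.7 kb after its start in irradiated and from 26.2 to 34.6 kb in control cells. Per 100 kb the gene with its flanks held 13.3 irradiated and 6.66 control peaks, and the next 250 kb on either side held 5.85 and 0.202.

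Abcc3 encodes a basolateral pump for bile acids and glucuronides. The gene (ID 76408, chromosome 11, 94343295 to 94393017) held 9 peaks in irradiated and 0 in control cells, the largest difference in peak number among the 50 members. The nearest control peak was 112 kb away from any of them. The strongest irradiated peak, at 94391339 to 94392049, had 17 reads, 4.54-fold enrichment and q = 0.0119. The other 8 had 11 to 15 reads, folds of 2.37 to 4.10 and q values from 0.0536 to 0.912. The background was at least 1.5 times the lowest of the list at 8 of the 9 peaks, and lay between 0.999 and 2.02 scaled reads. Whether it bears on the peaks was not tested. Per 100 kb the gene with its flanks held 16.8 irradiated peaks, against 1.21 in the next 250 kb on either side. At a q of at most 0.05, Abcc3 had 1 irradiated peak.

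Abcc9 encodes the regulatory sulphonylurea receptor subunit of ATP-sensitive potassium channels of muscle and vessels. The gene (ID 20928, chromosome 6, 142587862 to 142702766) held 9 irradiated and 7 control peaks, spread over its length. A q of 0.05 or less was reached by 3 irradiated peaks. They lay at 142665855 to 142666344 (15 reads, fold 5.46, q 0.00171), at 142638332 to 142638669 (14 reads, fold 5.14, q 0.0119) and at 142633886 to 142634170 (13 reads, fold 4.53, q 0.0164). The last of these overlapped a control peak with 10 reads, 3.60-fold enrichment and q = 0.385. The strongest control peak, at 142652347 to 142652708, had 12 reads, 4.22-fold enrichment and q = 0.115, and no irradiated peak within 13.1 kb. The backgrounds were near the lowest of each list, with 0.704 to 1.00 scaled reads in irradiated and 0.918 to 1.08 in control cells. The 250 kb on either side of the gene and its 2 kb flanks held 23 irradiated and 11 control peaks. Abcc9 with its flanks held 7.57 irradiated and 5.89 control peaks per 100 kb, and the next 250 kb on either side 4.64 and 2.22.

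The other marked Abcc genes held fewer peaks. Abcc12, a less studied relative of the multidrug resistance-associated proteins (chromosome 8, 86504568 to 86580688), held 3 irradiated and 2 control peaks, with folds of 2.72 to 3.46 in irradiated and of 3.29 and 3.60 in control cells. An irradiated peak with a fold of 2.72 overlapped a control peak with a fold of 3.29. Abcc8, the sulphonylurea receptor of pancreatic beta cells (chromosome 7, 46104523 to 46180039), held 1 irradiated peak, with 13 reads, 2.73-fold enrichment and q = 0.537, and no control peak. No peak was listed in Abcc1, Abcc4, Abcc5, Abcc6 or Abcc10. Abcc4, an exporter of cyclic nucleotides, is 225 kb long and the longest of the unmarked members.

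**Figure D5:**
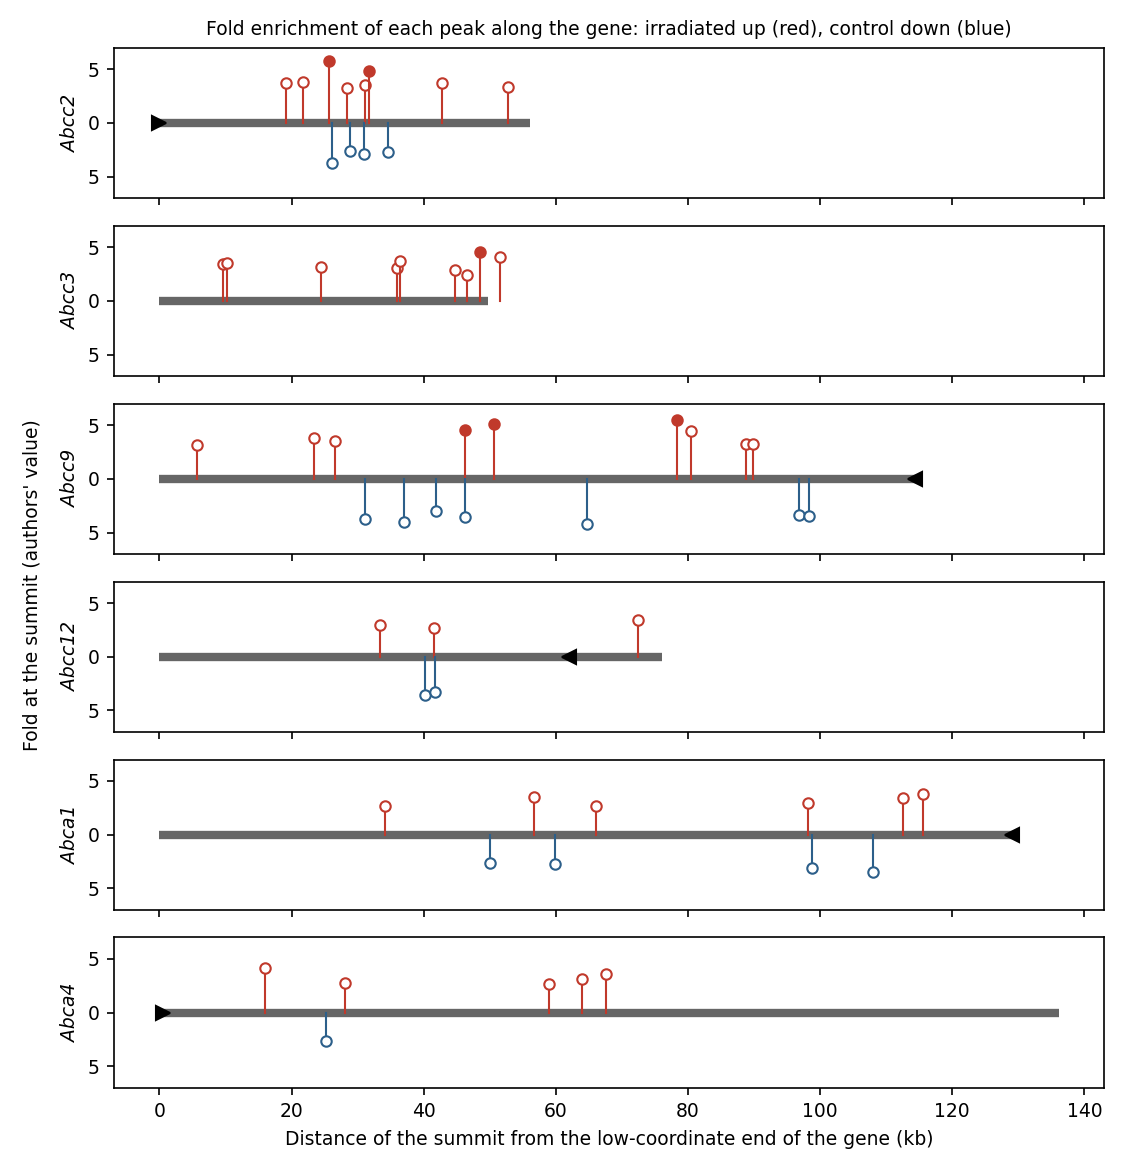
Stems give the authors' fold of each peak, irradiated upward and control downward, at the distance of its summit from the low-coordinate end of 6 ABC genes; filled heads have a q of at most 0.05 and black arrowheads mark the start and direction where known. Overlapping peaks are seen in Abcc2, Abcc9 and Abcc12, and Abcc3 has stems on the irradiated side only.

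In the Abca subfamily the peaks were spread over more genes. Abca1, which exports cholesterol and phospholipid to apolipoprotein A-I (chromosome 4, 53030789 to 53159988), held 6 irradiated peaks with folds of 2.71 to 3.80 and 4 control peaks with folds of 2.61 to 3.43. None overlapped between the lists, the closest pair lying 358 bp apart, and the lowest q was 0.0708 in irradiated and 0.831 in control cells. The background of these peaks reached 1.00 scaled reads in irradiated and 2.00 in control cells. Abca4, the retinoid flippase of photoreceptors (chromosome 3, 122043891 to 122180070), held 5 irradiated peaks and 1 control peak. Its strongest irradiated peak had 11 reads, 4.16-fold enrichment and q = 0.0536, and its control peak 11 reads, 2.61-fold enrichment and q = 1.00 over a background of 2.00 scaled reads. Abca17, a relative of the surfactant lipid transporter gene Abca3 (chromosome 17), held 1 irradiated peak with a fold of 3.14 and no control peak, and Abca3 beside it held none. Abca13 (chromosome 11, 9191942 to 9684871), the longest member with 493 kb, held no irradiated peak and 4 control peaks, the strongest with 11 reads, 4.08-fold enrichment and q = 0.385.

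Tandem groups held both marked and unmarked Abca genes. On chromosome 7, Abca14, Abca15 and Abca16, genes of a group known from rodent testis, lie side by side between 120203927 and 120544892. Abca16 (ID 233810) had the highest fold of all members, with 1 irradiated peak at 120532805 to 120533113 of 16 reads, 5.79-fold enrichment and q = 0.00171. It overlapped the only control peak of the gene, which had 9 reads, 3.29-fold enrichment and q = 0.831. Both backgrounds were close to the lowest, at 0.704 scaled reads in irradiated and 1.00 in control cells. Per 100 kb, Abca16 with its flanks held 0.718 peaks in either list, fewer than the next 250 kb on either side, with 4.44 irradiated and 2.42 control peaks. Of the marked members, 11 of 14 were denser than their surroundings in irradiated and 7 of 11 in control cells. Only members with a peak enter this count, which favours a density above the surroundings. The same count over all marked genes was not set beside it. Abca14 held 1 irradiated and 2 control peaks, at different sites. Abca15 held no irradiated peak and 3 control peaks, the strongest with 3.75-fold enrichment and q = 0.385. On chromosome 11, between 109932206 and 110337723, Abca8b and Abca5 held 1 irradiated peak each, both with 12 reads, 4.49-fold enrichment and q = 0.0536, and no control peak. In the same group Abca6 held no irradiated peak and 3 control peaks with folds of 3.11 to 3.43, and Abca8a and Abca9 held none. Abca2, a gene of myelinating cells, Abca7, a phospholipid transporter gene, and Abca12, which loads skin lipids, were unmarked too.

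Of the Abcb genes, which include drug efflux and bile transporters, 0 of 10 were marked in irradiated cells (0%, 0 to 30.8) and 1 of 10 in control cells (10.0%, 0.253 to 44.5). Both intervals hold the shares of all protein-coding genes, 8.19% in irradiated and 6.05% in control cells. The marked one was Abcb11, the bile salt export pump gene (chromosome 2, 69238282 to 69342616), with 1 control peak of 11 reads, 4.08-fold enrichment and q = 0.385. Abcb1a and Abcb1b, which encode the P-glycoproteins, and Abcb4, which encodes the bile phosphatidylcholine transporter, lie together on chromosome 5 and held no peak in 181 kb, 68.2 kb and 65.6 kb. The next 250 kb on either side of each of these 3 genes held no listed peak either, so the absence was not particular to them. All 7 members on chromosome 5 were unmarked, as were 19584 of all 21900 protein-coding genes. The share of all genes of chromosome 5 was not set beside this. Also unmarked were Abcb5 and the organelle genes Abcb6, Abcb8, Abcb9 and Abcb10.

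In the Abcg subfamily, 2 of 6 genes were marked in irradiated cells (33.3%, 4.33 to 77.7) and 0 of 6 in control cells (0%, 0 to 45.9). These intervals hold the shares of all protein-coding genes, 8.19% in irradiated and 6.05% in control cells. Abcg1, which moves sterols to high-density lipoprotein (chromosome 17, 31057694 to 31117984), held 2 irradiated peaks, with folds of 3.55 and 3.25 and q values of 0.149 and 0.40. Abcg2, the breast cancer resistance protein gene (chromosome 6, 58584491 to 58692451), held 1 irradiated peak of 16 reads, 3.29-fold enrichment and q = 0.214, over a background of 2.00 scaled reads against a lowest value of 0.704. Neither had a control peak. Abcg3, Abcg4 and the sterol transporter pair Abcg5 and Abcg8 were unmarked. So were the peroxisomal genes Abcd2 and Abcd3, the lysosomal cobalamin gene Abcd4, the ribosome recycling gene Abce1 and the translation genes Abcf1, Abcf2 and Abcf3. The 8 genes of Abcd, Abce and Abcf, all unmarked (0%, 0 to 36.9), are short, with a median of 18.8 kb, and together span 0.206 Mb. Their interval holds the shares of all protein-coding genes in both lists as well.

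Overlap between the lists at ABC genes was limited to 5 pairs of peaks in 4 genes, at 1 bp or more. These made up 10.2% (3.40 to 22.2) of the irradiated and 15.6% (5.28 to 32.8) of the control peaks, against 11% and 21.3% at all protein-coding genes. The pairs lay in Abcc2, with 2, and in Abcc9, Abcc12 and Abca16, with 1 each. The authors' fold was higher in the irradiated list in 4 of the 5 pairs, Abcc12 being the exception. Because the fold needed differed between the lists, this was not read as a difference in level. In the second Abcc2 pair the irradiated peak had 9 reads (fold 3.51) and the control peak 10 reads (fold 2.87). Both control peaks of the Abcc2 pairs stood over a raised background, of 1.73 and 1.51 scaled reads, and its part in the folds was not tested. Of the 7 genes marked in both lists, Abca1, Abca4 and Abca14 thus held peaks at different sites only. Among the 7 irradiated peaks that reached a q of 0.05, 3 overlapped a control peak, in Abcc2, Abcc9 and Abca16. The shares above are for peaks of any q, and the share for such peaks at all protein-coding genes was not set beside this count.

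Genes that work with ABC transporters were too few for their shares to be set apart from those of all protein-coding genes (8.19% in irradiated and 6.05% in control cells). Of 3 ABC proteins with other symbols, Cftr, the chloride channel gene of cystic fibrosis, held no irradiated peak and 1 control peak (fold 3.43, q 0.831), and the antigen peptide transporter genes Tap1 and Tap2 held none. Of 14 nuclear receptors and other regulators of ABC genes, 1 was marked in irradiated cells (7.14%, 0.181 to 33.9) and 3 in control cells (21.4%, 4.66 to 50.8). Ppara, a fatty acid sensor on chromosome 15, held 5 irradiated peaks (lowest q 0.0498, fold 4.16) and 1 control peak (fold 3.23). Nr1i2, the xenobiotic sensor PXR, and Pparg, the regulator of fat cells, held 1 control peak each, with folds of 3.29 and 3.43. Of 11 partner genes, Kcnj8, the channel pore partner of Abcc9 and its neighbour on chromosome 6, was the only marked one, in irradiated cells (1 peak, 11 reads, fold 3.92, q 0.0536). Kcnj11, the partner of Abcc8, was unmarked.

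Counting genes of every length, other families of membrane transporter genes had shares of marked genes above those of all genes as well, which was not tested. Among P-type ATPase genes, ion and lipid pumps of a median length of 99.7 kb, 10 of 36 were marked in irradiated cells (27.8%, 14.2 to 45.2) and 5 of 36 in control cells (13.9%, 4.67 to 29.5). Among all solute carrier (Slc and Slco) genes these were 55 of 389 (14.1%, 10.8 to 18) and 40 of 389 (10.3%, 7.45 to 13.7), and among the organic ion carriers Slco and Slc22 8 of 39 (20.5%, 9.30 to 36.5) and 3 of 39 (7.69%, 1.62 to 20.9). At 50 kb and more, 41.9% of ABC genes were marked in irradiated cells, against 39.1% of P-type ATPase and 25.9% of solute carrier genes. In control cells 35.5% of ABC, 21.7% of P-type ATPase and 23.2% of solute carrier genes of that length were marked. Slco and Slc22 genes of that length stood at 26.3% (5 of 19) in irradiated and 15.8% (3 of 19) in control cells. All protein-coding genes of that length stood at 17.9% and 16.3%, so the Slco and Slc22 share in control cells was not above that of all genes. Per Mb, ABC genes held 11.9 irradiated and 7.77 control peaks. P-type ATPase genes held 6.27 and 2.76, solute carrier genes 7.27 and 3.40, and all protein-coding genes 5.38 and 2.76. Abcc2, Abcc3 and Abcc9 held 26 of the 49 irradiated and 11 of the 32 control peaks at ABC genes. Without these genes, 23 irradiated and 21 control peaks were left. The intervals of the ABC and P-type ATPase shares overlap, and no difference between families was tested.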

How the data were processed

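H3K27me3 ChIP-seq lists of irradiated and control GL261 cells were used. Per the labels' protocols, formaldehyde-fixed, sonicated chromatin was precipitated and sequenced as paired reads; BWA, deepTools and mm10 are named, without versions, in the submitters' processing notes. Name and settings of the peak caller and the use of the inputs: not given in the sources used here. Positions in bp were deposited as other values. As deposited, the score equals 10 times the −log10 p, cut to a whole number. The ratio, deposited for each summit, is a fold over a local background estimated by the authors' caller. For each peak −log10 p and q values were deposited; the largest p was 0.00499 in the irradiated and 0.00495 in the control list, so peaks were kept by unadjusted p.

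Lines of the same interval (679 irradiated, 215 control) were merged, with the values of the strongest summit. Reads and background were recovered from fold and p under a Poisson model (tolerance 0.001 in −log10 p) for 100% of peaks. More than 1 solution was found for 0.292% of irradiated and 0% of control peaks. The method was tested on data simulated under the same model, which cannot show whether the authors' caller used that model. Depth is given as reads at summits, since totals are unknown. 1 read counted as 0.554 scaled reads in the irradiated and 0.620 in the control list. Overlap was 1 bp or more. Gene spans and promoters came from RefSeq tables of GRCm38.p6; exons were not resolved. Promoters matched 38 of 50 members. Python 3.11.15 and scipy 1.17.1 were used. Some unmarked members are not reported here by name. Every marked member is named, with full values for those with a q of at most 0.05, the most peaks or overlapping peaks. The members and lists were chosen with earlier results of these data known. Alternatives were a q of at most 0.05, a −log10 p of at least 5, equal list lengths, other windows and overlaps, merged peaks and left-out chromosomes.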

Additional observations from a re-analysis of the deposited data

How the results depend on the processing

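The counts at ABC genes depended on peak strength and on counting whole genes. With a q of at most 0.05, 4 members and 7 peaks were left in irradiated and 0 members and 0 peaks in control cells, with 0 overlaps in either list. With a −log10 p of at least 5, 7 members and 11 peaks were left in irradiated cells, and 0 and 0 in control cells. With 2000 bp around gene ends alone, 1 member (Abcc3) with 2 peaks was marked in irradiated cells and 0 with 0 peaks in control cells. Lists of equal length gave 10 irradiated and 11 control members, by 24 and 32 peaks, which turned the order of the lists. Without chromosomes 15, 6 and 11, 9 members with 28 peaks were marked in irradiated cells and 8 with 18 peaks in control cells. A reciprocal overlap of 50% left 3 irradiated and 3 control peaks shared, and a distance of up to 1000 bp gave 8 and 7. Windows of 500 and 5000 bp both gave 14 irradiated and 11 control members, and merging peaks within 1000 bp gave 45 and 29 peaks.

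Alternatives added after seeing the data were gene length and left-out members. Members under 50 kb included 1 marked gene in irradiated and 0 in control cells. Without Abcc2, Abcc3 and Abcc9, 23 irradiated and 21 control peaks were left, and without Abcc3 alone 40 and 32. Where a cause is not given by the setting itself, the cause was not tested. No paired analysis was possible because each condition had 1 library. Peaks rested on 7 to 17 reads, so a gene without a listed peak may carry the mark below the calling threshold.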
